A study of Mus musculus with 3 samples.

Results

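The 10 transcripts described here are the SMAD factors that carry TGF-β and BMP signals to the nucleus, Smad1, Smad2, Smad3, Smad4, Smad5, Smad6, Smad7 and Smad9, and their corepressors Ski and Skil. They were taken by gene name and make up 10 of the 43472 gene rows of the deposited table. Levels were measured by RNA sequencing in primary fibroblasts grown out of C57BL/6 mouse tail tips and scratched to make an in vitro wound. The cells were exposed for 5 h to soluble micrograft (MG) together with PD0325901. Soluble MG is the liquid fraction of disrupted mouse skin after filtering and centrifugation. PD0325901 inhibits the kinase MEK and thereby the activation of ERK. All 3 libraries belong to this MG + PD0325901 group (replicates 1, 2 and 3), and the age, sex and number of the animals behind them are not given in the sources used here. Other conditions were not analysed here, so no level below is a response to MG or to the inhibitor.

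SMAD proteins are the intracellular arm of the TGF-β superfamily. Activated type I receptors phosphorylate the receptor-regulated SMADs, Smad2 and Smad3 in the TGF-β and activin branch and Smad1, Smad5 and Smad9 in the BMP branch, which then join Smad4 and act on target genes in the nucleus. Smad6 and Smad7 are inhibitory SMADs that block this step, and Ski and Skil (SnoN) bind SMAD complexes and hold target genes down. Smad6, Smad7 and Skil are themselves switched on by SMAD signaling and so form feedback loops. In skin fibroblasts the pathway is known for driving matrix production and wound contraction, and ERK is known to phosphorylate the linker region of receptor-regulated SMADs.

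Promoter sequences are shown for 4 members, Smad1, Smad9 and Ski with their highest value in replicate 2 and Smad6 with its lowest value there. In the exact tests described below, Smad9 was called in no pair of libraries and Smad6 was not called between replicates 2 and 3. RefSeq (GRCm38.p6) promoters, 250 bases before to 50 bases after the transcript start, were matched for 6 of the 10 members. Both strands were searched for CAGAC (the CAGA box bound by Smad3 and Smad4), GTCTAGAC (the palindromic SMAD element, which shares the letters AGAC with it), GGCGCC (a GC-rich element of BMP-responsive genes) and TGANTCA (the AP-1 site). Of all 32851 promoters of the same length, 49.6% held CAGAC, 0.213% held GTCTAGAC, 11.9% held GGCGCC and 7.81% held TGANTCA. Capitals mark the matches. The windows are chr9:64022010-64022309 for Smad6, chr8:79399379-79399678 for Smad1 and chr4:155222486-155222785 for Ski, all on the minus strand, and chr3:54755332-54755631 on the plus strand for Smad9.
Smad6: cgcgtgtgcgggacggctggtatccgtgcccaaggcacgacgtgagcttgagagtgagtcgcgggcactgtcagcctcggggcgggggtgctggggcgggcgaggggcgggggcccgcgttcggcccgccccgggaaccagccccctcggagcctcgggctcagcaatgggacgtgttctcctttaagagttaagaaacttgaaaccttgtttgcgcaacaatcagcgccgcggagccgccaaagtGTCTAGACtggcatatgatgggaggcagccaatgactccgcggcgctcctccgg
Smad9: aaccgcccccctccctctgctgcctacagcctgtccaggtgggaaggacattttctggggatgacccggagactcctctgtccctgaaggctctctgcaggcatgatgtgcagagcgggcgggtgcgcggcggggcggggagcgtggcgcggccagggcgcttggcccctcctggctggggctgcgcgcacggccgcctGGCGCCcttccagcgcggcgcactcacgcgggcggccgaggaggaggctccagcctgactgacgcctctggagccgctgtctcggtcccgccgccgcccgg
Ski: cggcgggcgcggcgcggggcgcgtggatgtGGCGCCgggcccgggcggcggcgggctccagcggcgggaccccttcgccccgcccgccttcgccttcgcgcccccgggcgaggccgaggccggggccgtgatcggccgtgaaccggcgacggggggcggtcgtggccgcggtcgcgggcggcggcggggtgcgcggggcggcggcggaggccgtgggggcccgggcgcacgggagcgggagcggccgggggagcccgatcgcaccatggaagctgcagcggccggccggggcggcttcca
Smad1: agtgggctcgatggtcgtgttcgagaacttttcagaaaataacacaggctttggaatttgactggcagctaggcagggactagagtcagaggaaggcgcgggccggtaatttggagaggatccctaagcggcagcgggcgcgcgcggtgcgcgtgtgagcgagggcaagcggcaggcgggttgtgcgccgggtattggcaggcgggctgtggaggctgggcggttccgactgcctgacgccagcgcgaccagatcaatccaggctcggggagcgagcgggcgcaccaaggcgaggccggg
Their GC content was 66.3% for Smad6, 73.7% for Smad9, 85.3% for Ski and 65.0% for Smad1, against a median of 52.7% over all promoters. The Smad6 window held 1 GTCTAGAC, which began 4 bases before the transcript start. The Smad9 and Ski windows held 1 GGCGCC each, beginning 51 and 220 bases before the start, and the Smad1 window held none of the searched motifs. Of the members not printed, Smad5 had 3 windows, of which 2 overlapped and held the same GGCGCC, while the other held CAGAC. The window of Smad3, which also had its highest value in replicate 2, held none of the motifs. TGANTCA was in no member's window. A match is a description of the letters and not evidence of binding, and the absence of a match says only that these letters are not in the window.

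Read counts recovered from the deposited values summed to between 17244505 and 27037783 per library. Replicate 2 stood apart from the others across the transcriptome, more than 2-fold from both in 10.1% of the 13154 genes with a mean of at least 10 normalized counts, against 4.26% for replicate 1 and 3.58% for replicate 3. All 8 fibroblast markers looked up reached 10 normalized counts in each of the libraries, and their summed level lay between 345260 and 511180. Of 5 keratinocyte, 5 leukocyte, 5 endothelial and 5 skeletal muscle markers, 1, 1, 1 and 2 reached that minimum, and their sums ranged from 34.4 to 81.6, from 71.2 to 664, from 55.7 to 244 and from 2642 to 8494 normalized counts. The keratinocyte markers Krt15 and Krt1 and the muscle factor Myod1 had 0 reads in every library, and the muscle sum came from Acta1 and Des. Lyz2 gave most of the leukocyte sum, with 123, 62.7 and 601 normalized counts in replicates 1, 2 and 3. Laptm5, Tyrobp and Cd52 were also highest in replicate 3, on 31, 13 and 8 reads. Ptprc had at most 2 reads in any library. The muscle intermediate filament gene Des stood at 212 in replicate 1, 1208 in replicate 2 and 77.0 in replicate 3, and the part of these marker levels in the results below was not tested. In bulk RNA, fewer cells of a type and less RNA per cell cannot be told apart.

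All 10 members were detected, that is, they had at least 10 normalized counts in each of the 3 libraries. Their means ran from 43.4 ± 10.7 normalized counts (SD, n = 3) for Smad9 to 1670 ± 299 for Ski. The ratio of highest to lowest library passed 2-fold in 0 of 10 members and in 22.0% of the 12204 detected genes. It passed 1.5-fold in 3 members, Smad1, Smad4 and Smad9, and in 48.8% of genes. On the scale of log2(normalized count + 1), the members' SD had a median of 0.20 and that of all detected genes 0.30. Without replicate 2 the members' median was 0.11, but the value for all genes without it is not given here, so the fall is not particular to the members. No member was more than 2-fold from both other libraries in any replicate. The members were too few for these shares to be called particular to them, and no test was made over the list.

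**Figure D1:**
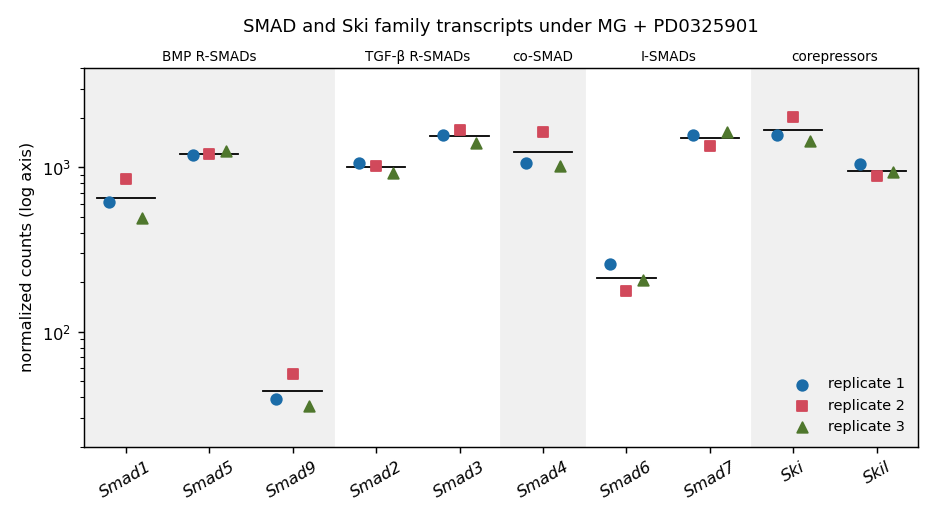
Normalized counts (log axis) of the 10 members in each of the 3 MG + PD0325901 libraries, grouped by role, with a black line at the mean of the 3 (R-SMADs, receptor-regulated SMADs; I-SMADs, inhibitory SMADs). Smad9 and Smad6 lie below the other 8 members in every library, and the replicate 2 squares lie on top for Smad1, Smad9, Smad3, Smad4 and Ski.

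Among the receptor-regulated SMADs of the BMP branch, Smad5 was the steadiest member and Smad1 the most variable. Smad5 (chromosome 13, 56703010 to 56742377, GRCm38) gave 1177 normalized counts in replicate 1, 1194 in replicate 2 and 1245 in replicate 3. Its highest library was only 1.06-fold above the lowest, the narrowest range of the family, with an SD of log2 level at percentile 1.55 of all detected genes. Smad1 (chromosome 8, 79338395 to 79399518) had 616, 851 and 493 normalized counts. Replicate 2 was the highest and replicate 3 the lowest, 1.73-fold apart with a 95% interval of 1.54 to 1.93 from counting error. Smad9 (chromosome 3, 54755582 to 54801257), which encodes the factor also called Smad8, gave 39.1, 55.7 and 35.6 normalized counts. Only 45, 79 and 30 reads lay behind these values, so that counting error alone was 18.3% in the shallowest library. Replicate 2 was 1.57-fold above replicate 3, with an interval of 1.02 to 2.47, and the pair missed the threshold (adjusted p = 0.0589, two-sided exact binomial test).

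Smad2 and Smad3, the receptor-regulated SMADs of the TGF-β and activin branch, varied little. Smad2 (chromosome 18, 76241580 to 76310963) gave 1065 normalized counts in replicate 1, 1014 in replicate 2 and 921 in replicate 3, which averaged 999.8 ± 72.8 (SD, n = 3). Smad3 (chromosome 9, 63646767 to 63757994) gave 1573, 1685 and 1401, which averaged 1553 ± 143. Replicate 3 was the lowest library for both, and the coefficient of variation was 7.29% for Smad2 and 9.20% for Smad3. Smad4 (chromosome 18, 73639009 to 73703780), the common partner of all receptor-regulated SMADs, behaved otherwise. It had 1054, 1627 and 1018 normalized counts, so that replicates 1 and 3 lay close together and replicate 2 stood 1.54-fold above the nearer of them. This was the widest gap between 1 library and both others in the family, with an interval of 1.44 to 1.66 against replicate 1.

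Of the inhibitory SMADs, Smad7 was several-fold above Smad6 and both were lowest in replicate 2. Smad6 (chromosome 9, 63953076 to 64022059), which acts mainly on the BMP branch, gave 258 normalized counts in replicate 1, 176 in replicate 2 and 205 in replicate 3. Smad7 (chromosome 18, 75367529 to 75395935), which acts on both branches, had 1563, 1342 and 1627. Replicate 1 was thus the highest library for Smad6 and replicate 3 for Smad7, although with read totals made equal replicate 1 became the highest for Smad7. The range was 1.46-fold for Smad6 and 1.21-fold for Smad7. For Smad6, replicates 2 and 3 were not separated (adjusted p = 0.181, two-sided exact binomial test).

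The corepressors differed in opposite ways. Ski (chromosome 4, 155154075 to 155222592) gave 1558 normalized counts in replicate 1, 2009 in replicate 2 and 1442 in replicate 3, with replicate 2 above both others. Skil (chromosome 3, 31095058 to 31122577) had 1050, 879 and 930, with replicate 1 above both others. The lowest library of Skil was replicate 2 with the deposited size factors and with TMM scaling, and replicate 3 with read totals made equal. Ski had a 1.39-fold range and Skil a 1.19-fold range, both narrower than the 1.49-fold median of all detected genes.

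**Figure D2:**
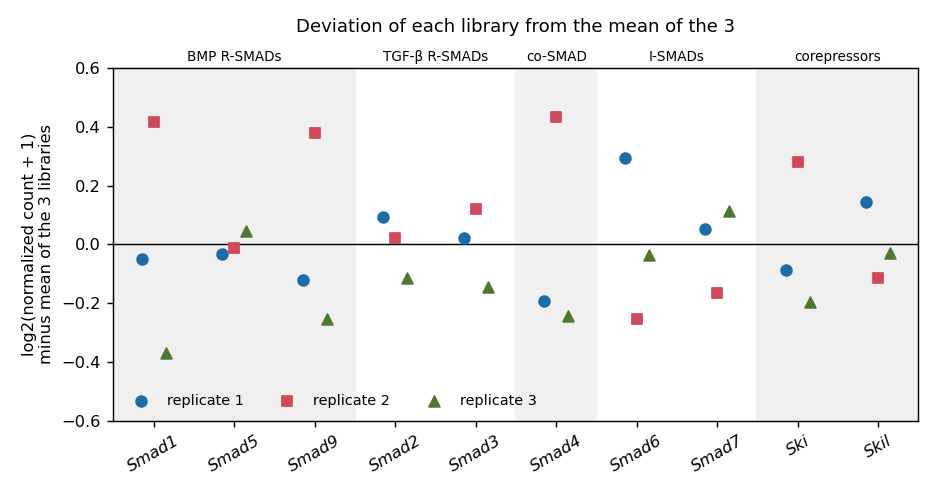
Deviation of each library from the mean of the 3, as log2(normalized count + 1), for the 10 members grouped by role. Replicate 2 (squares) lies above 0 (0.28 to 0.43) for Smad1, Smad9, Smad4 and Ski and below 0 (-0.26 to -0.11) for Smad6, Smad7 and Skil, while Smad5 and Smad2 stay within 0.12 of 0.

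Members lay on both sides of the other libraries in replicate 2. On the scale of log2(normalized count + 1), replicate 2 minus the mean of replicates 1 and 3 was 0.65 for Smad4, 0.63 for Smad1, 0.57 for Smad9 and 0.42 for Ski, all outside the middle 50% of detected genes, which ran from -0.35 to 0.39. It was -0.38 for Smad6, also outside, and -0.25 for Smad7 and -0.17 for Skil, both inside. Smad3, Smad2 and Smad5 had differences of 0.18, 0.034 and -0.019, and that of Smad5 turned to 0.051 with read totals made equal. In all, 5 of 10 members lay outside the middle 50%, the share that holds for all detected genes by construction, so this spread is not particular to the family. The 3 feedback genes Smad6, Smad7 and Skil were the lowest 3 of the 10 in this difference. The direction of these differences was read from 3 libraries of 1 condition, with no label that sets replicate 2 apart.

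Reads of the libraries were compared gene by gene with two-sided exact binomial tests, Benjamini-Hochberg adjusted over all genes tested (threshold 0.05). These tests cover counting error only, treat reads as independent molecules, and compare libraries and not conditions. A gene with many reads can be called at a small difference, and the shares over all genes include genes with few reads. Between replicates 1 and 2, 7 of 10 members were called, against 69.1% of 14771 genes, with Smad1, Smad3, Smad4 and Ski higher in replicate 2 (36.0% of genes) and Smad6, Smad7 and Skil higher in replicate 1 (33.1%). Between replicates 1 and 3, 5 of 10 were called, against 52.0% of 14316 genes. Smad1, Smad2, Smad3, Smad6 and Skil were all higher in replicate 1 (25.5% of genes) and none was higher in replicate 3 (26.5%). Between replicates 2 and 3, 5 of 10 were called, against 62.6% of 14344 genes, with Smad1, Smad3, Smad4 and Ski higher in replicate 2 (32.1%) and Smad7 higher in replicate 3 (30.5%). With read totals made equal, which moved every gene by 0.10 (log2) toward replicate 2 in this pair, Smad2 and Smad9 were called higher in replicate 2 as well. Between replicates 1 and 2 the call of Smad3, 1.07-fold with an adjusted p of 0.0407 in the exact test, was lost under TMM scaling. The members' shares lay near these backgrounds and are no result about the family as such. Smad4 gave the smallest adjusted p of any member, 8.21e-35 between replicates 1 and 2 and 9.56e-33 between replicates 2 and 3 in the exact test, while its difference between replicates 1 and 3 was 1.04-fold (interval 0.948 to 1.13, adjusted p = 0.552). Smad5 was called in no pair, and neither was Smad9, whose reads were few. Smad2 lay at the threshold between replicates 2 and 3, with an adjusted p of 0.05002 in the exact test.

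**Figure D3:**
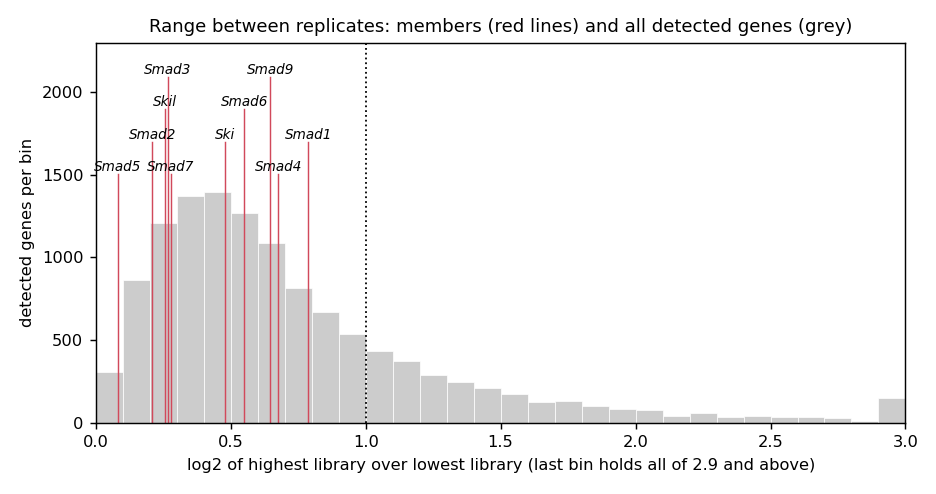
Range between replicates, as log2 of the highest over the lowest library, for the 12204 detected genes (grey bars, genes per bin) and for each member (red lines, line height has no meaning). All members lie left of the dotted line that marks a 2-fold range, from Smad5 at 1.06-fold to Smad1 at 1.73-fold.

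Levels of different genes were set side by side as normalized counts per kb of merged exons. By mean per kb the order was Smad7, Smad4, Ski, Smad3, Smad5, Smad2, Smad1, Skil, Smad6 and Smad9. The first 4 were not separated. Smad7 had 334 ± 33.2 normalized counts per kb (SD, n = 3), Smad4 332 ± 92.0, Ski 300.2 ± 53.8 and Smad3 280.2 ± 25.8, and the ranges of neighbours overlapped. Smad7 ranked first in replicates 1 and 3 but below Smad4, Ski and Smad3 in replicate 2, where Smad4 ranked first with 438 per kb. A clear step followed, as Smad3 was between 1.51-fold and 1.89-fold above Smad5 in the 3 libraries. Smad5 had 162 ± 4.75 per kb and was above Smad2, with 114 ± 8.30, in 3 of 3 libraries and without overlap. Smad2, Smad1 (104 ± 29.1 per kb) and Skil (98.3 ± 9.06 per kb) overlapped, and their order changed between libraries. Smad6, with 66.5 ± 12.9 per kb, was below Skil in 3 of 3 libraries. Smad9 was last in every library, at 8.09 ± 2.00 per kb, between 5.30-fold and 11.1-fold below Smad6. With the longest protein-coding transcript as the length, 7 of the 10 ranks changed, and Smad5, Smad6 and Smad9 kept theirs.

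**Figure D4:**
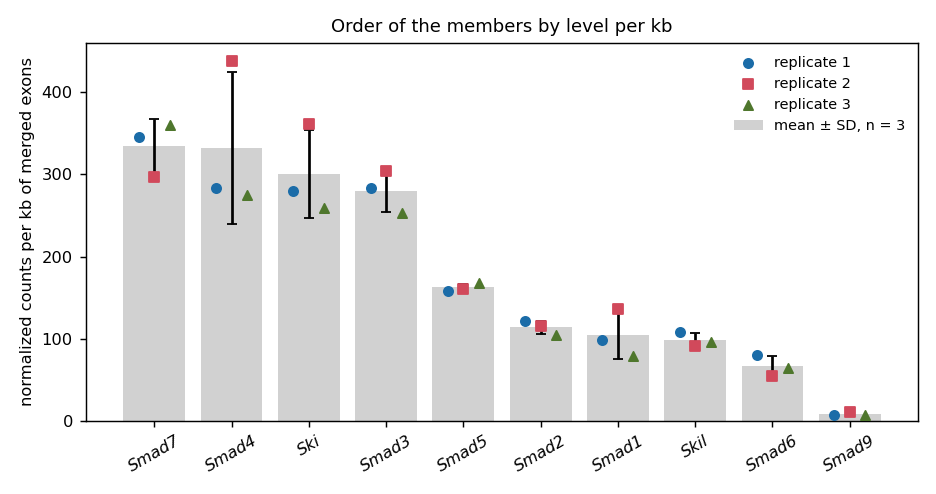
Level per kb of merged exons (bars, mean ± SD of the 3 libraries; points, single libraries), ordered by mean. Smad7, Smad4, Ski and Smad3 overlap between 253 and 438 normalized counts per kb, Smad5 to Skil lie between 78.7 and 168, and Smad6 and Smad9 follow.

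Ratios of members within a library do not depend on its scaling. The BMP-branch SMADs (Smad1, Smad5 and Smad9 summed per kb) stood at 0.652, 0.733 and 0.708 of the TGF-β-branch SMADs (Smad2 and Smad3) in replicates 1, 2 and 3, so this balance moved by 1.12-fold at most. The inhibitory SMADs stood at 0.637, 0.484 and 0.694 of all receptor-regulated SMADs, lowest in replicate 2. Smad6 stood at 0.233, 0.185 and 0.178 of Smad7, so replicate 2 was not the lowest for this ratio. Skil stood at 0.387, 0.251 and 0.370 of Ski, the widest range of the 5 ratios planned, 1.54-fold. The corepressors together stood at 1.37, 1.03 and 1.30 times the level of Smad4 per kb, close to it in replicate 2 only. In shares of the summed level per kb of all 10 members, Smad4 had 16.1%, 22.3% and 16.5% and the inhibitory SMADs 24.1%, 17.9% and 25.5%, the groups in which replicate 2 differed most, whereas Ski with Skil took between 21.4% and 23.0% in every library. These ratios are given as a description and were not tested.

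Genes on which the SMADs act were read from lists of textbook targets. All 17 SMAD2/3 targets were detected, and 13 of them were lowest in replicate 2, against 37.3% of all detected genes. Their median log2 difference of replicate 2 from the others was -0.59, against 0.029 for all detected genes. Between replicates 1 and 2, 16 of 17 were called by the exact test, against 69.1% of all genes tested, 13 higher in replicate 1 (33.1% of genes) and 3 higher in replicate 2 (36.0%). Several of these targets had so many reads that small gaps were called. Col1a1 was called with 157550 and 154120 normalized counts (adjusted p = 1.43e-11, exact test). Itgb1 was called with 36264 and 37118 (adjusted p = 7.33e-04), so the number of calls is no measure of the size of the differences. The highest per kb were Timp1, an inhibitor of matrix metalloproteinases, with 62668, 27514 and 60429 normalized counts, and Tagln, an actin-binding protein of contractile cells, with 100450, 83454 and 114830. Replicate 2 was more than 2-fold below both others for Timp1, for Junb, an AP-1 subunit, with 1732, 530 and 1322, and for the clock repressor Bhlhe40, with 2498, 1107 and 2501. Postn, which encodes the matrix protein periostin, went the other way with 482, 1735 and 111 normalized counts. The list thus held large differences in both directions. Among the 8 fibroblast markers, Lum differed most, with 5073, 289 and 1164 normalized counts. Dcn had 3661, 1723 and 3659, whereas Pdgfrb stayed close, with 2894, 2942 and 3129. Only Lum and Dcn had a range above 2-fold. The median SD of log2 level was 0.32 for the 8 markers, against 0.30 for all detected genes.

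Of the 13 SMAD1/5 targets, 12 were detected and 6 of these were lowest in replicate 2, against 37.3% of all detected genes. Between replicates 1 and 2, 9 of 13 were called, a share at the 69.1% of all genes tested, with 8 higher in replicate 1 (33.1% of genes) and 1 higher in replicate 2 (36.0%). The highest per kb were Id3 and Id1, dominant-negative helix-loop-helix factors that BMP signals induce. Id3 had 3899, 1914 and 2537 normalized counts and Id1 had 890, 318 and 441, with replicate 1 the highest for both, as for Smad6. Msx2, a homeobox factor, had 745, 218 and 562, and Id4 had 130, 284 and 96.0, the only target of this list more than 2-fold higher in replicate 2 than in both others. Dlx5 rested on 31, 3 and 9 reads.

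**Figure D5:**
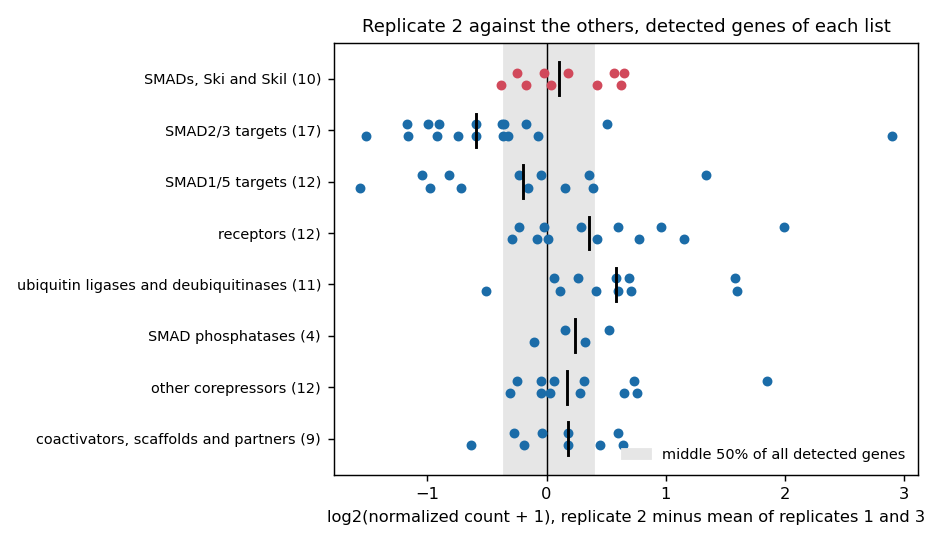
Difference of replicate 2 from the mean of replicates 1 and 3, in log2(normalized count + 1), for each detected gene (points) and the median (black line) of the members and of each pathway list, with the number of detected genes in brackets and the middle 50% of all detected genes shaded. Medians were -0.59 for SMAD2/3 targets, 0.11 for the members and 0.58 for ubiquitin ligases and deubiquitinases.

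Upstream of the SMADs, 12 of 14 receptor genes were detected, with a median difference of 0.35 in replicate 2. The highest per kb were Acvr1, a type I receptor for BMPs and activins, with 1304, 1399 and 1475 normalized counts, and the co-receptor Tgfbr3 with 1090, 2579 and 1228. Tgfbr3 and Acvrl1, a type I receptor known from endothelium, with 177, 741 and 193, were more than 2-fold higher in replicate 2 than in both others. Of the 5 endothelial markers, Tek had 6.95, 185 and 2.37 normalized counts and Pecam1 had 9.55, 3.52 and 2.37. Egfl7 had 69.5, 53.6 and 49.8, Kdr had 4.34, 1.41 and 0, and Cdh5 had 0, 0 and 1.19. Kdr and Cdh5 had too few reads to show a difference. Pecam1 rested on 11, 5 and 2 reads and was called in no pair in which it was tested. The part of the 5 endothelial markers in the receptor levels was not tested. Acvr2b was more than 2-fold below both others in replicate 1, but on 6, 28 and 10 reads. Between replicates 1 and 2, 10 of 13 receptors tested were called, near the 69.1% of all genes, and 7 of them were higher in replicate 2 (36.0% of genes).

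All 11 ubiquitin ligases and deubiquitinases of the pathway were detected, 9 were highest in replicate 2, against 40.6% of all detected genes, and the median difference was 0.58. In the exact test of replicates 1 and 2, 10 of 11 were called, against 69.1% of all genes, 9 higher in replicate 2 (36.0% of genes) and 1 higher in replicate 1 (33.1%). Nedd4l, a ligase of Smad2 and Smad3, had 340, 998 and 320 normalized counts, and Usp11, a deubiquitinase, had 103, 293 and 91.3. Stub1, a chaperone-linked ligase and the highest of the list per kb, was the 1 member lowest in replicate 2, with 3024, 1952 and 2554, and Usp4 had 2525, 3219 and 3778. The 4 phosphatases were all detected with ranges up to 1.62-fold. Ctdsp1 and Ctdsp2, small C-terminal domain phosphatases with the highest levels per kb, had 1643, 1547 and 1682 and 1011, 1392 and 1223.

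Other corepressors included 12 detected genes of 14, with Skor1 and Skor2, relatives of Ski, at no more than 2 reads in any library. Ctbp1 had 3300, 3207 and 3334 normalized counts and Hdac2, a histone deacetylase, had 2709, 2166 and 1665. Tgif2, a homeobox corepressor of Smad2 and Smad3, had 39.1, 150.1 and 42.7 and was more than 2-fold higher in replicate 2 than in both others. Of 11 coactivators, scaffolds and partners, 9 were detected and none stood more than 2-fold from both others. Strap, a scaffold that stabilises Smad7 on the receptor, had 4050, 4235 and 3444, and Jun, the AP-1 subunit, had 4557, 2805 and 4179.

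Profiles most like those of the extreme members were sought among the 79 genes of these lists with a mean of at least 10, by the Euclidean distance between log2 deviations over the 3 libraries. For Smad1, which had the widest range, they were the deubiquitinase Usp9x at a distance of 0.085, with 2697, 4049 and 2270 normalized counts, and the ubiquitin ligases Rnf111 and Trim33 at 0.14 and 0.17. For Smad5, which had the narrowest, they were Hdac3 at 0.038, Ctbp1 at 0.052 and Acvr1 at 0.073. With 3 libraries such likeness is common, as 97 of 13153 genes lay as close to Smad1 as Usp9x did and 92 as close to Smad5 as Hdac3 did.

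No stretch of 50 bases, the read length, in the transcripts of 8 members occurred in a transcript of another gene. The exceptions were 0.679% of the stretches of Smad5, shared with the overlapping small RNA gene Gm27301, which had 0 reads in every library, and 0.169% of those of Smad9. Only identical stretches were counted, whereas the alignment allowed mismatches.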

How the data were processed

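The authors deposited a signal, DESeq-normalized counts per gene: each library's reads divided by its size factor. Per the paper and the submitters' processing notes, 50 bp single-end reads from stranded libraries were aligned to mm10 with TopHat2 2.0.13, keeping unique hits, and counted per gene with HTSeq 0.5.3p3. Which gene annotation and strand setting were used is not given in the sources used here. A further 3 columns of per-sample values matched no sample and were not used.

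Dividing by the value of a single read gave whole reads (within 0.1) for 100% of values. Size factors were 1.15, 1.42 and 0.844 in replicates 1, 2 and 3, and a count of 0 allows up to 3 reads, or 2.61, 2.11 and 3.56 normalized counts. Of 43472 rows, 20322 had reads. Of all rows, 27 bore dates for names (0.231% of reads). Libraries were tested in pairs, by the two-sided exact binomial test on every gene of 10 or more reads over both, the p-values being adjusted after Benjamini and Hochberg. Intervals are exact Clopper-Pearson intervals and, like the floors, cover counting error only. edgeR 4.0.16 (R 4.3.3) gave TMM factors and a common biological coefficient of variation of 31.8% over 12204 genes, with moderated values of 21.2% (Smad5) to 35.9% (Smad9) for the members. Python 3.11.15, numpy 2.4.6, scipy 1.17.1 and pandas 2.3.3 did the rest. Positions and lengths came from GENCODE M21 (GRCm38). Scripts were tested on simulated data.

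The members, lists and tests were chosen with earlier results of these data known. All members were named, and from each list the 2 genes with the highest mean per kb and up to 4 that were more than 2-fold from both other libraries in a replicate, widest range first. Lum, Dcn, Pdgfrb, Des, Tek, Pecam1, Egfl7, Kdr, Cdh5, Lyz2, Laptm5, Tyrobp, Cd52, Ptprc, Col1a1 and Itgb1 were named after their values were seen. Of Dlx5 and Acvr2b only reads are given. The labels call the libraries replicates of 1 condition, so no conditions were compared. The alternatives tried were other scalings, lengths, thresholds, pseudocounts and minimums, and each replicate left out.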

Additional observations from a re-analysis of the deposited data

How the results depend on the processing

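No paired analysis was possible because a single group of libraries was at hand. The median SD of the members' log2 levels was between 0.11 and 0.22 with a replicate left out, lowest without replicate 2. The same was not worked out for all genes. At a 1.5-fold limit 1 member, Smad4, was apart in replicate 2, against 22.9% of genes. With a 2-fold difference required as well, the exact test called 0 members between replicates 1 and 2, 0 between replicates 1 and 3 and 0 between replicates 2 and 3, against 20.6%, 9.4% and 16.6% of genes. At an adjusted p under 0.01 the exact test called 3 members between replicates 1 and 3, against 42.6% of genes. With the longest protein-coding transcript as length 7 ranks changed, with no division by length 6, and with any replicate left out 2. The same lengths moved the ratio of the BMP to the TGF-β branch to 0.848 and 0.746 and that of Skil to Ski to 0.481 and 0.585. Without division by length, the corepressors stood at 2.19 times Smad4, Smad6 at 0.141 of Smad7 and the inhibitory SMADs at 0.390 of the receptor-regulated SMADs. Another 53 alternative values of such summaries changed by less than 1 SD or 1.5 times, and the cause of the fall in SD without replicate 2 was not tested. Mean levels moved by less than 1 SD when scaled otherwise, and leaving out a library cannot move a mean of 3 further than that. Depth limited Smad9, with 30 to 79 reads.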
